A study of Drosophila melanogaster with 36 samples.

Results

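Adult male Drosophila melanogaster exposed to phenobarbital for 4 h were set against control males on 2-colour spotted arrays that carry probes for detoxification genes. The flies, of strain y cn bw sp, had been collected soon after emergence and held for 4 days in groups of 50. In the exposed arm, 10 µl of a 1 M phenobarbital solution in 150 µl acetone was dried onto the wall of a 30 ml glass vial, so that the flies met the compound by contact. The control arm had vials coated with 150 µl acetone alone, so both arms were of 1 strain and both had been held in acetone-treated vials. RNA of whole flies from 8 samples of 50 males was pooled in each arm, which made 400 males per pool. The 3 arrays described here are those of this exposure, numbered 1 to 3, of the 36 arrays of the series, and all 159 genes named by a single symbol are described. Array 4 of the same title was left out, because its values were identical to those of a DDT array of adult males in 1936 of 1936 spots. The series holds 9 exposures in all, of which DDT in adult males and phenobarbital in 3rd instar larvae serve here for comparison.

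Phenobarbital is a barbiturate that is widely used to induce enzymes of xenobiotic metabolism in insects and mammals, and in mammals it acts through the nuclear receptor CAR. Cytochrome P450s put oxygen into foreign and internal compounds, glutathione S-transferases (GSTs) join glutathione to electrophilic products, and esterases split ester bonds. In insects the CYP3 clan of P450s and the delta and epsilon classes of GSTs hold many of the enzymes tied to insecticide metabolism, and many of their genes lie side by side on the chromosomes.

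RNA of exposed males was labelled with Cy5 for arrays 1 and 3 and with Cy3 for array 2. Each value below is a log2 ratio of exposed over control, turned by dye, averaged over the spots of a gene and set to 0 at the median named gene of its array. That median stood at 0.44, 0.66 and 0.42 on the log2 scale on arrays 1, 2 and 3 as deposited, above 0 in both dye orientations. Each array had 1936 spots, of which 1686, 1671 and 1675 gave a ratio on arrays 1, 2 and 3, and 618, 583 and 610 of the 656 named spots did. Across genes, array 1 correlated with array 3 at r = 0.78, array 1 with array 2 at 0.59 and array 2 with array 3 at 0.54, over points that share the same 2 pools. Array 4, turned in the same way, correlated at -0.26, -0.07 and -0.33 with arrays 1, 2 and 3. The 3 arrays are repeat hybridisations of 1 pair of pools, so each SE and adjusted p is against array error and compares these 2 pools, not animals. In pooled whole flies, fewer cells of a type and less RNA per cell cannot be told apart. The arrays give ratios and no levels, so the presence of a tissue could not be checked against its markers. The labels do not say which dye is the numerator of the deposited ratios. Cy5 over Cy3 was assumed, and with the other direction every higher and lower would swap.

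The first question was which genes changed on exposure. Of 159 genes 27 were higher and 2 were lower in exposed males by limma (Benjamini-Hochberg adjusted p under 0.05 over all 159 genes and a ratio of at least 1.5-fold), which made 17% higher, 1.26% lower and 18.2% in all. With arrays scaled to equal spread the split was 29 higher and 7 lower. The higher genes were 17 of the 85 P450s, near the 17% over all genes, and 10 of the 34 GSTs. No other gene was called higher. Of the 27, 21 were at least 2-fold and 7 at least 4-fold higher. All 27 lay above 0 on each of the 3 arrays, hence in both dye orientations, and 23 of them were at least 1.5-fold higher on each array. Of the 130 genes not called, 0 were at least 1.5-fold higher on all 3 arrays. The median over all genes was -0.07, and the median SE of a gene was 0.26.

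Of the 27 higher genes 17 were also called with any single array left out, and 10 lost their call without 1 or another array. Without array 2, the only one with exposed RNA in Cy3, 8 genes were not called, and they fitted between 0.42 ± 0.26 in GstD3 and 1.01 ± 0.35 in Cyp4p1. The other 6 were Cyp4e3 at 0.51, GstE5 at 0.51, GstD4 at 0.62, Cyp9b2 at 0.80, Cyp6g1 at 0.84 and GstD7 at 0.89. Cyp4p1, Cyp9b2 and GstD3 lost their call without either of 2 arrays. Without array 3, Cyp12b2 at 1.03, Cyp6a2 at 1.16, Cyp9b2 at 1.18 and GstD3 at 0.71 were not called, and without array 1 Cyp4p1 at 0.84 was not. All of these genes stayed above control with the array removed.

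**Figure D1:**
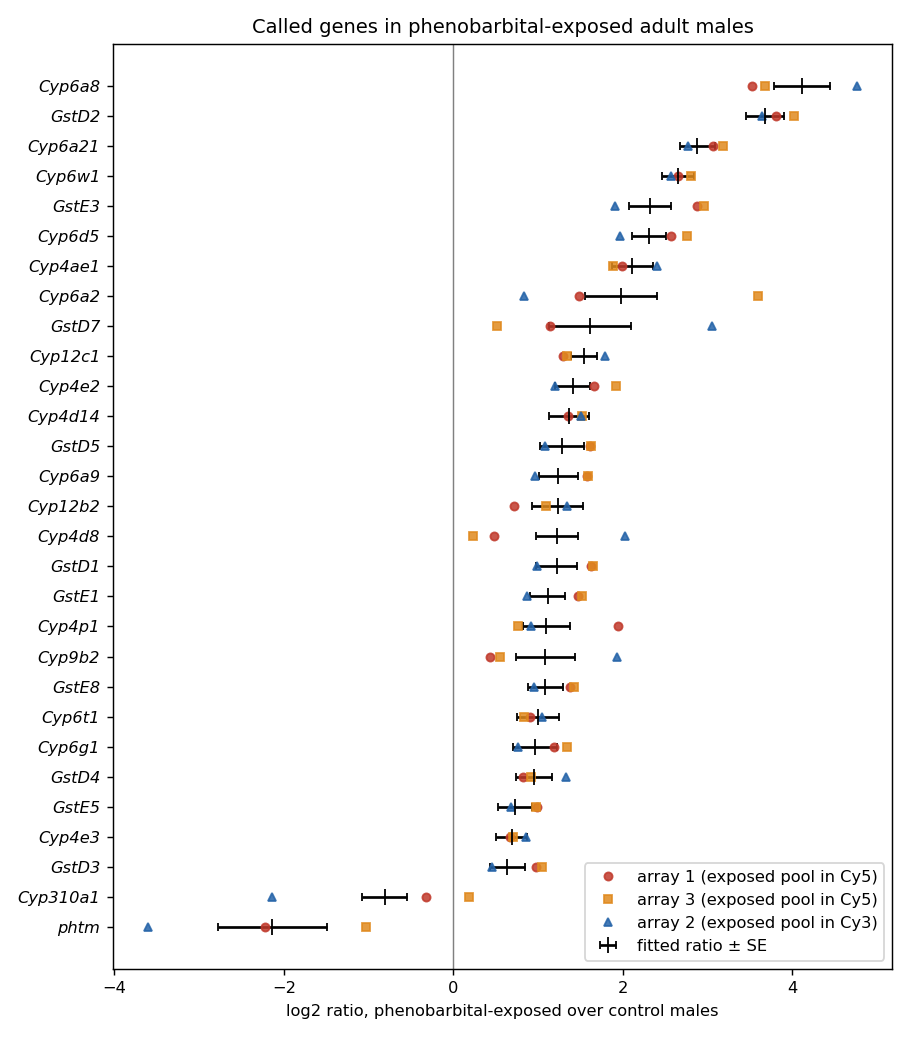
Log2 ratio of phenobarbital-exposed over control males (x axis) for the 29 called genes (rows), with 1 symbol per array and the fitted ratio ± SE in black. The 27 higher genes lie above 0 on all 3 arrays, while Cyp6a2, GstD7, phtm and Cyp310a1 spread over more than 2 log2 units between arrays.

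The CYP3 clan, the P450 group with most of the known xenobiotic enzymes, held the highest P450 ratios. Of its 38 members 9 were higher, beside 27 of all 159 genes, 1 was lower and 28 were not called. The median of the clan was 0.39 against -0.07 over all genes. Cyp6a8, a P450 known to be overexpressed in some insecticide-resistant strains, stood at 3.53, 4.76 and 3.68 on arrays 1, 2 and 3. It was far above control on each array and highest on array 2, and 10 of its 12 spots over the 3 arrays gave a value. The array 2 value came from 1 of its spot copies only, whose spots stood at 5.34 and 4.18. The fit gave 4.12 ± 0.33, or 17.4-fold (n = 3 arrays, limma adjusted p = 1.97e-11), the largest ratio of any named gene. Cyp6a21 had 3.06, 2.77 and 3.18, and the fit gave 2.88 ± 0.21 or 7.36-fold (limma adjusted p = 1.98e-12). Its 3 arrays lay within 0.41 of each other and all 12 of its spots were measured.

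Cyp6w1 and Cyp6d5 followed. Cyp6w1 stood at 2.65, 2.57 and 2.81, which gave 2.65 ± 0.19 or 6.27-fold, and Cyp6d5 at 2.57, 1.97 and 2.75, which gave 2.30 ± 0.20 or 4.94-fold. Both were higher on every array, with array 2 the lowest. Array 2 was the lowest of the 3 arrays for 15 of the 27 higher genes and the highest for 10 of them. Cyp6a9, another gene known to be overexpressed in some resistant strains, had 1.58, 0.96 and 1.59 and a fitted 1.24 ± 0.23. Cyp6g1, whose overexpression is known to give resistance to DDT, had 1.19, 0.77 and 1.34 and a fitted 0.96 ± 0.26. Cyp6t1 was the steadiest of the smaller ones, at 0.91, 1.05 and 0.83.

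The Cyp6a subfamily, to which Cyp6a8, Cyp6a21, Cyp6a2 and Cyp6a9 belong, had 4 of 14 members higher, beside 27 of all 159 genes, and 0 lower. Of the 14, 13 had a fitted ratio above 0, beside 71 of all 159 genes, and the median was 0.51. The 10 uncalled members lay between -0.22 and 0.77. Of the 3 Cyp6d genes Cyp6d5 was called, while Cyp6d4 stood at 0.58, 0.13 and 0.46 on arrays 1, 2 and 3 and fitted 0.25 ± 0.19. Of the 5 Cyp9 genes Cyp9b2 was called at 1.09 ± 0.35 (with spot copies at 1.85 and 0.23), with 0.43, 1.93 and 0.55 on arrays 1, 2 and 3, and the others lay between -0.31 and 0.35. The pseudogene Cyp6t2Psi had the highest uncalled P450 ratio, 1.15 ± 0.63. It stood at 0.50, 2.22 and 0.06, so that array 2 alone carried it.

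The CYP4 clan, a group that in other animals includes fatty acid hydroxylases, had 6 of 32 members higher, 0 lower and a median of -0.14. Its share of higher genes was close to the 17% over all named genes. Cyp4ae1 had 1.99, 2.40 and 1.89 on arrays 1, 2 and 3, and the fit gave 2.11 ± 0.24 or 4.32-fold (limma adjusted p = 3.43e-08). This is an average of 2 spot copies of Cyp4ae1 that disagree, one at 4.16 ± 0.24 and the other, not called, at -0.025 ± 0.29. Cyp4e2 had 1.66, 1.20 and 1.92 and fitted 1.41 ± 0.20, and Cyp4d14 had 1.35, 1.51 and 1.52 and fitted 1.36 ± 0.23. These 3 genes were higher on each array by more than 2-fold. Cyp4p1 was higher at 1.10 ± 0.28, with array 1 at 1.94 and the other arrays under 1. Cyp4d8 was higher at 1.22 ± 0.25 although arrays 1 and 3 stood at 0.48 and 0.23 and array 2 at 2.03. The fit holds a dye term for each gene that is shared by the arrays of all exposures, and its value for Cyp4d8 lies above the mean of its 3 arrays, 0.91. With no dye term Cyp4d8 was not called (0.91 ± 0.63, limma adjusted p = 0.486). Cyp12b2, Cyp9b2, GstD3 and GstE5 also lost their call in that setting, and 22 of the 27 higher genes kept theirs. Cyp4e3, the smallest higher member, fitted 0.69 ± 0.18. Of the 3 Cyp4e genes 2 were higher, and of the 6 Cyp4d genes 2 were.

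In the mitochondrial clan, which holds both enzymes of steroid hormone synthesis and enzymes thought to act on foreign compounds, 2 of 9 genes were higher and 0 lower. Over all named genes 17% were higher. Both were Cyp12 genes, Cyp12c1 at 1.54 ± 0.15 and Cyp12b2 at 1.23 ± 0.30, of 5 Cyp12 genes measured. Each call rested on 1 of the gene's 2 spot copies, at 2.70 ± 0.26 against 0.30 ± 0.19 in Cyp12c1 and at 1.83 ± 0.26 against 0.56 ± 0.56 in Cyp12b2. Cyp12d1 was not analysed here. The CYP2 clan had 0 of 6 genes higher and 1 lower, phtm.

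**Figure D2:**
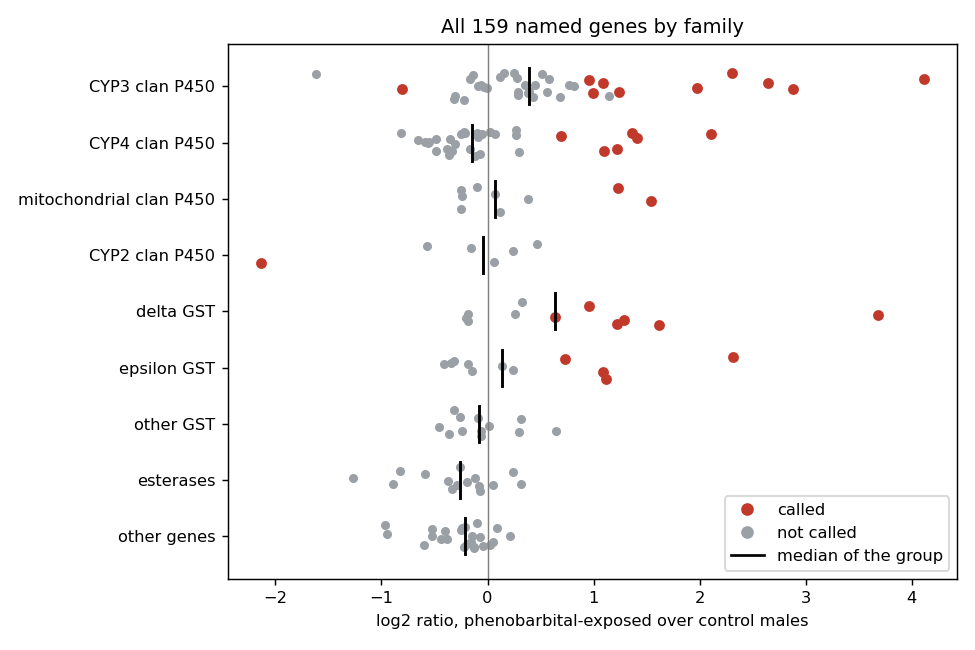
Fitted log2 ratio of exposed over control males (x axis) for all 159 named genes by family (rows), with called genes in red, uncalled genes in grey and each family's median as a black bar. Called genes lie in the P450 rows and in the delta and epsilon GST rows, and none lies among other GSTs, esterases or other genes.

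GSTs were called only in the delta and epsilon classes. In the delta class 6 of 11 genes were higher, beside 27 of all 159 genes, and 0 lower, with a median of 0.63. GstD2 had 3.81, 3.65 and 4.02 on arrays 1, 2 and 3, and the fit gave 3.68 ± 0.23 or 12.8-fold (limma adjusted p = 1.09e-13). It was the second highest gene, and its 3 arrays lay within 0.37 of each other. GstD1, an enzyme known to dehydrochlorinate DDT, stood at 1.63, 0.98 and 1.65 and fitted 1.22 ± 0.24. GstD5 stood at 1.61, 1.08 and 1.63 and fitted 1.29 ± 0.26. GstD4 was higher at 0.95 ± 0.22 and GstD3 at 0.63 ± 0.21, both above 0 on each array. GstD7 had 1.14, 3.05 and 0.51 and fitted 1.62 ± 0.48, with array 2 more than 2 log2 units above array 3, and its spot copies disagreed, at 2.84 ± 0.97 and -0.52 ± 0.59. The 5 uncalled delta genes were GstD10 at 0.33, GstD9 at 0.26, GstD11 at -0.18, GstD6 at -0.19 and GstD8 at -0.20.

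In the epsilon class 4 of 11 genes were higher, beside 27 of all 159 genes, and 0 lower, with a median of 0.14. GstE3 had 2.88, 1.91 and 2.95 on arrays 1, 2 and 3 and fitted 2.32 ± 0.25 or 4.99-fold (limma adjusted p = 9.43e-09). GstE1 stood at 1.47, 0.87 and 1.52 and fitted 1.11 ± 0.21, and GstE8 at 1.37, 0.95 and 1.43 and fitted 1.08 ± 0.20. GstE5, at 0.73 ± 0.20, was the smallest. Each of these 4 genes was lowest on array 2 and above 1.5-fold on all arrays. Of the 12 GSTs of other classes 0 were called, and their median was -0.08. The highest of them, GstO3 of the omega class, had 1.00, 0.37 and 0.91 and fitted 0.65 ± 0.30 (limma adjusted p = 0.155), and the lowest, GstZ2 of the zeta class, fitted -0.46 ± 0.32.

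Many of the higher genes are neighbours on the chromosomes, as are many of the named genes as a whole. In the reference annotation 16 runs of at least 3 named genes, allowing up to 2 other genes between them, held 71 of the 159 named genes. Of these 71 genes 18 were higher, beside 27 of all 159. On arm 3R the 11 delta GST genes lie in 1 run, in the order GstD10, GstD9, GstD1, GstD2, GstD3, GstD4, GstD5, GstD6, GstD7, GstD8 and GstD11. The 5 successive genes from GstD1 to GstD5 were all higher, with GstD2 between neighbours at 1.22 and 0.63. On arm 2R the run GstE10, GstE1, GstE3, GstE4, GstE5, GstE8 and GstE9 had 4 of 7 genes higher, with GstE4 between higher neighbours at -0.19 ± 0.30. Also on 2R lies the run Cyp6a22, Cyp6a17, Cyp6a23, Cyp6a19, Cyp6a9, Cyp6a20, Cyp6a21 and Cyp6a8, with 3 of 8 genes higher. The other 5 of that run fitted between 0.29 and 0.56 and none was called. All 5 lay above 0, beside 71 of all 159 genes. On the X chromosome Cyp4d14 and Cyp4ae1 were higher in a run of 4 whose other members are Cyp4d1 and Cyp4d2. Neighbouring genes of these families are similar in sequence, and the probe sequences were not used here, so signal shared between near-identical genes was not tested.

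**Figure D3:**
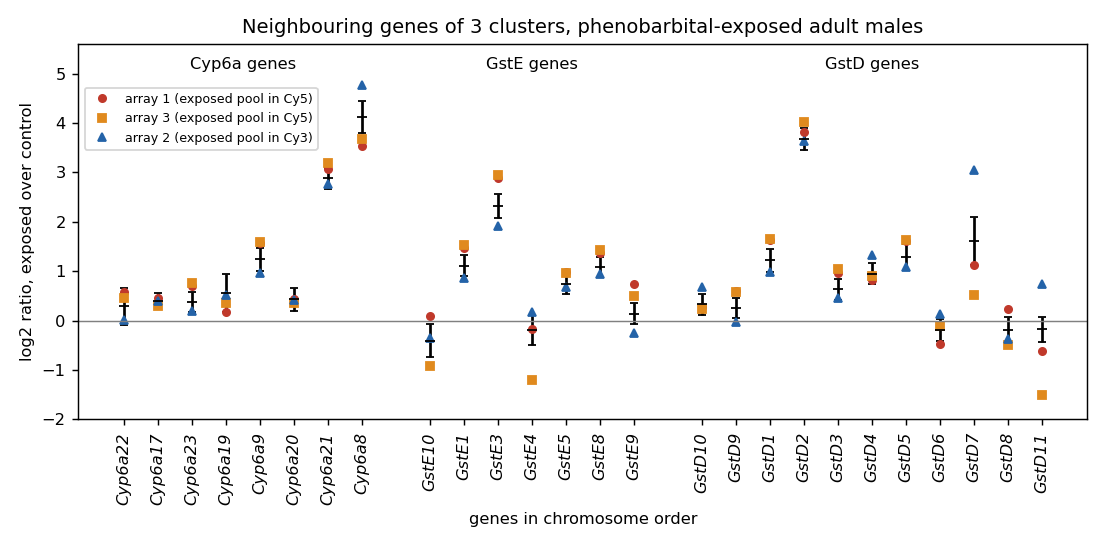
Log2 ratio of exposed over control males (y axis) for the genes of the Cyp6a, GstE and GstD runs in chromosome order (x axis), with 1 symbol per array and the fitted ratio ± SE in black. Cyp6a8, GstE3 and GstD2 stand above the other genes of their runs on each of the 3 arrays, and Cyp6a21 stands next to Cyp6a8 and above the rest of its run.

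Further P450s were measured and not called. In the CYP3 clan Cyp28d2 had the lowest uncalled P450 ratio, -1.62 ± 0.65 (limma adjusted p = 0.0903), with array 2 alone far below control at -4.42. Cyp28d1 fitted -0.31 ± 0.32, Cyp28c1 0.52 ± 0.43, Cyp309a1 0.00 ± 0.20 and Cyp308a1 0.29 ± 0.43. Cyp6u1, Cyp6v1 and Cyp6a13 fitted 0.81 ± 0.33, 0.69 ± 0.46 and 0.77 ± 0.47, and none passed the test. All 3 were far higher on array 2, at 1.87, 1.57 and 1.50, than on arrays 1 and 3, where they lay between -0.26 and 0.29. In the CYP4 clan the 3 neighbours Cyp4ac1, Cyp4ac2 and Cyp4ac3 fitted -0.05, -0.09 and 0.07, in contrast to Cyp4p1, whose neighbours Cyp4p2 and Cyp4p3 fitted -0.48 ± 0.31 and -0.25 ± 0.25. The Cyp313 genes fitted from -0.82 ± 0.59 in Cyp313a5, the lowest value of the clan, to -0.21 ± 0.58 in Cyp313a2, with none called. In the mitochondrial clan Cyp12a5 stood at -0.02, 1.00 and -0.07, so that array 2 alone was high, and Cyp12a4 and Cyp12e1 fitted -0.25 ± 0.19 and -0.24 ± 0.15. These members and those of the next paragraph that the naming rule does not cover were named after their values were seen.

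Among GSTs outside the delta and epsilon classes, the 4 theta members GstT1, GstT2, GstT3 and GstT4 fitted between -0.26 and -0.06. The omega members were GstO3 at 0.65, se, which acts in eye pigment synthesis, at 0.31, GstO1 at 0.30 and GstO2 at -0.31. The sigma class gene GstS1 fitted -0.24 ± 0.27 and the microsomal gene Mgstl 0.02 ± 0.25. The dispersed epsilon genes GstE11, GstE12, GstE13 and GstE14, which lie outside the GstE run, fitted between -0.34 and 0.24.

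The esterases had 0 of 15 genes called, beside 29 of all 159 genes, with a median of -0.26. The alpha-esterase cluster had 0 of 8 called, between -0.33 and 0.24. alpha-Est7, a gene whose orthologs are altered in organophosphate-resistant blowflies, fitted -0.12 ± 0.20. alpha-Est10 stood at 1.03, -1.45 and 0.30 on arrays 1, 2 and 3, which did not repeat. Jhedup, a relative of the juvenile hormone esterase gene, was lower on each array, at -0.52, -0.65 and -0.84, and fitted -0.59 ± 0.26 (limma adjusted p = 0.145). Est-Q fitted -0.82 ± 0.33 (limma adjusted p = 0.0903). The 25 other genes, with a median of -0.21, also had 0 called. Among them the small heat shock genes Hsp22, Hsp26 and Hsp27, which are known to rise with protein damage, stood at -0.05, -0.10 and -0.39. The 4 control genes fitted close together, RpL10Aa at -0.21, RpS20 at -0.22, Gapdh1 at -0.24 and RpS21 at -0.25, and none passed the test. With arrays centred on these 4 genes the median of all genes was 0.15, with arrays centred on all spots 0.27 and with the deposited values 0.59, so that the sign of a gene near 0, the control genes included, depends on the centring. The 27 higher genes were called under each of these 3 settings, all of which raise the median gene, so a higher call could hardly be lost.

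Only 2 genes were called lower, and both rested on incomplete spots. phtm, which encodes an ecdysteroid hydroxylase of moulting hormone synthesis, had -2.22, -3.60 and -1.04 on arrays 1, 2 and 3 and fitted -2.14 ± 0.64 (limma adjusted p = 0.0164). It was below control on each array, from 9 of 12 spot values, 3 of which were ratios of small whole numbers. Cyp310a1 had -0.33, -2.14 and 0.18 and fitted -0.81 ± 0.27 (limma adjusted p = 0.0272), from 8 of 12 spot values, so that array 2 alone was low. Neither was called as deposited, with arrays centred on all spots or with arrays centred on the control genes, nor without array 2, where phtm fitted -1.05 ± 0.75 and Cyp310a1 -0.14 ± 0.26. A ratio was counted as one of small whole numbers where it equalled a quotient of 2 numbers up to 5 to 3 decimals, and 8.58%, 5.83% and 8.03% of the named spot ratios on arrays 1, 2 and 3 were of that kind.

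The other genes of ecdysteroid metabolism were measured beside phtm. Of these 6 genes 1 was lower and 0 were higher, beside 2 lower and 27 higher of all 159 genes. spo, another gene of hormone synthesis, had -0.31, -1.15 and -0.42 and fitted -0.57 ± 0.20. It passed the p threshold (limma adjusted p = 0.0423) but not the size threshold. dib at 0.07, sad at -0.10 and shd, the final hydroxylase, at -0.25 were not called. Cyp18a1, which breaks down ecdysteroids, stood at 0.46 ± 0.43.

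Of the genes not called, 4 were at least 1.5-fold lower on all 3 arrays. They are Est-P, CG10175, Nlg4 and Cyp313a5, of which all but Est-P were singled out after their values were seen. Est-P had -1.03, -2.16 and -1.01 and fitted -1.27 ± 0.58 (limma adjusted p = 0.155), from 5 of 12 spot values with 3 of small whole numbers. It was listed here as a marker of the male reproductive tract, which was not checked. The neuroligin Nlg4 had -0.73, -0.65 and -2.05 and fitted -0.89 ± 0.34. The 5 nervous system markers had a median of -0.20 and 0 calls, beside 29 of all 159 genes called. Cyp4g1, the P450 of hydrocarbon synthesis in oenocytes, stood at -0.10 ± 0.26. The widest spreads between arrays were those of CG3841, with 2.81, -1.79 and -1.48 from 4 of 12 spot values, and Cyp28d2, with -0.43, -4.42 and -0.24. CG10339 had -2.44, -1.32 and 0.58 from 4 spot values. None of these 3 was called, and their arrays do not repeat each other.

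The 2 copies of each gene's spots gave a further check. Most genes are printed as 4 spots in 2 pairs at distant spot numbers, here called the lower-numbered and the higher-numbered copy. For the 133 genes with both copies on all 3 arrays the median gap between the copies' mean ratios was 0.20, and across genes the copies correlated at r = 0.59. Of the 27 higher genes 20 had both copy means at least 1.5-fold above control, and 16 had both copies at least 1.5-fold above control on each array where they had a value. Among these 16 were Cyp6a8, GstD2, Cyp6a21, Cyp6w1, GstE3, Cyp6d5 and GstD1. The other 7 were Cyp12b2, Cyp12c1, Cyp4ae1, Cyp4e3, Cyp6a2, Cyp9b2 and GstD7.

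Among genes with both copies on all 3 arrays, Cyp4ae1 had the widest gap between copy means. Its higher-numbered copy stood at 4.34, 4.33 and 4.44 on arrays 1, 2 and 3 and its lower-numbered copy at -0.35, 0.47 and -0.66. The higher-numbered copy repeated itself between arrays, while the lower-numbered copy changed sign on array 2. The 2 copies differed by at least 3.86 log2 units on each array. Fitted alone, the higher-numbered copy gave 4.16 ± 0.24 and the lower-numbered copy -0.025 ± 0.29. Cyp12c1 showed the same order, with 2.65, 2.94 and 2.88 in its higher-numbered copy and -0.05, 0.64 and -0.19 in its lower-numbered copy, and fitted values of 2.70 ± 0.26 and 0.30 ± 0.19. In Cyp9b2 the higher-numbered copy fitted 1.85 ± 0.54 and the lower-numbered copy 0.23 ± 0.33.

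Cyp6a2, a P450 known to be overexpressed in insecticide-resistant strains, split the other way. Its lower-numbered copy stood at 3.45, 4.05 and 3.59 and fitted 3.84 ± 0.24. Its higher-numbered copy stood at -2.44 on array 1 and -2.38 on array 2, had no value on array 3 and fitted -2.58 ± 0.77. The average of 1.98 ± 0.42 given by all spots therefore describes neither copy, and array 3 stood highest in Cyp6a2, at 3.59 against 1.49 and 0.84, where only the lower-numbered copy had a value. Of the 3 spot values of the higher-numbered copy 2 were ratios of small whole numbers. GstD7 was similar, with 2.08, 4.41 and 1.45 in its lower-numbered copy and -0.76, 0.34 and -0.42 in its higher-numbered copy, where 4 of 4 spot values were ratios of small whole numbers. Whether the copies carry the same probe, and what part weak signal had in the splits, was not tested.

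**Figure D4:**
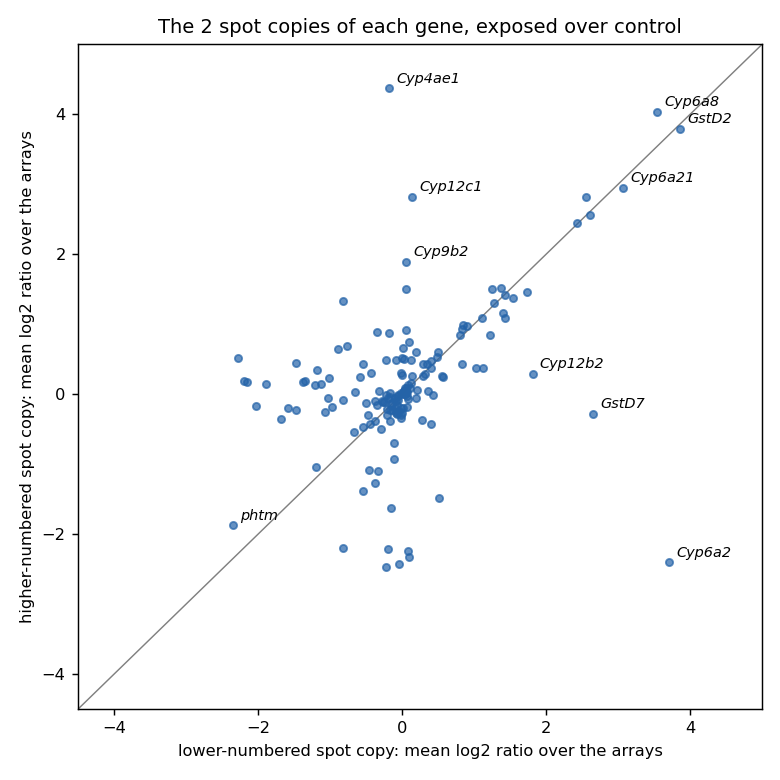
Mean log2 ratio of exposed over control males over the arrays in the lower-numbered spot copy (x axis) and in the higher-numbered copy (y axis), 1 point per gene with a value in both, and the line of equal values in grey. Cyp6a8, GstD2 and Cyp6a21 lie near the line, and Cyp4ae1, Cyp12c1, Cyp6a2 and GstD7 lie far from it.

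Phenobarbital was also given to 3rd instar larvae, at 10 mM in the food for 4 h, with controls of their own. Stage, route and dose differ together between these exposures and cannot be told apart. Of 159 genes 28 differed between adult males and larvae by limma (17.6%), 10 higher (6.29%) and 18 lower (11.3%) in adults. As deposited, without centring, 10 differed, and with a dye term per exposure 52 did. Of the 27 genes higher in adults 22 were also called higher in larvae, which is 81.5% of the adult genes and 61.1% of the 36 larval ones (22.6% of all genes were called higher in larvae, and 43.4% in either direction). The 5 called in adults alone were Cyp6t1, GstD1, GstE1, GstE5 and GstE8, and of these GstE5 and GstE8 differed between the stages by the test of the difference. The 33 genes lower in larvae made 20.8% of all genes. Of these 33, 1 was lower in adults, Cyp310a1, beside 2 of all 159 genes. Another 1, GstE8, was higher in adults, beside 27 of all 159 genes.

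Of the 5 largest differences 3 were in genes near control in adults and far above it in larvae. Cyp28a5 had 0.34, -0.45 and 0.31 on the 3 adult arrays and fitted -0.09 ± 0.18 in adults, against 3.38 ± 0.15 in larvae, a difference of -3.47 ± 0.23 (limma adjusted p = 9.25e-13). Cyp6d4 fitted 0.25 ± 0.19 in adults and 2.92 ± 0.16 in larvae, a difference of -2.67 ± 0.25. Cyp9b1 stood at 0.00, -0.37 and -0.09 on the adult arrays and fitted -0.16 ± 0.35, against 2.24 ± 0.30 in larvae, a difference of -2.40 ± 0.46. These 3 P450s of the CYP3 clan were within 1.5-fold of the median gene on each adult array. Hsp22 likewise fitted -0.05 ± 0.26 in adults and 2.01 ± 0.22 in larvae. The other 2 of the 5, Cyp4d14 and Cyp6a9, were called higher at both stages and less so in adults. Cyp4d14 fitted 1.36 ± 0.23 in adults and 3.84 ± 0.20 in larvae, a difference of -2.48 ± 0.31, and Cyp6a9 fitted 1.24 ± 0.23 in adults and 3.58 ± 0.20 in larvae, a difference of -2.35 ± 0.30.

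Adults exceeded larvae most in Cyp6a8, at 4.12 ± 0.33 in adults and 1.94 ± 0.28 in larvae, a difference of 2.18 ± 0.43 (limma adjusted p = 2.77e-04). Its neighbour Cyp6a21 went the other way, with 2.88 ± 0.21 in adults and 4.37 ± 0.18 in larvae, a difference of -1.49 ± 0.27. GstE8 fitted 1.08 ± 0.20 in adults and -0.70 ± 0.18 in larvae, and GstE5 0.73 ± 0.20 in adults and -0.47 ± 0.17 in larvae. In the epsilon class as a whole 4 of 11 genes were higher in adults and the median was 0.14, against a median of -0.56 in larvae. On the same scale the control genes had a median of -0.23 in adults and -0.67 in larvae. The larval values of GstE8, GstE5 and the epsilon class thus lie near those of the control genes.

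**Figure D5:**
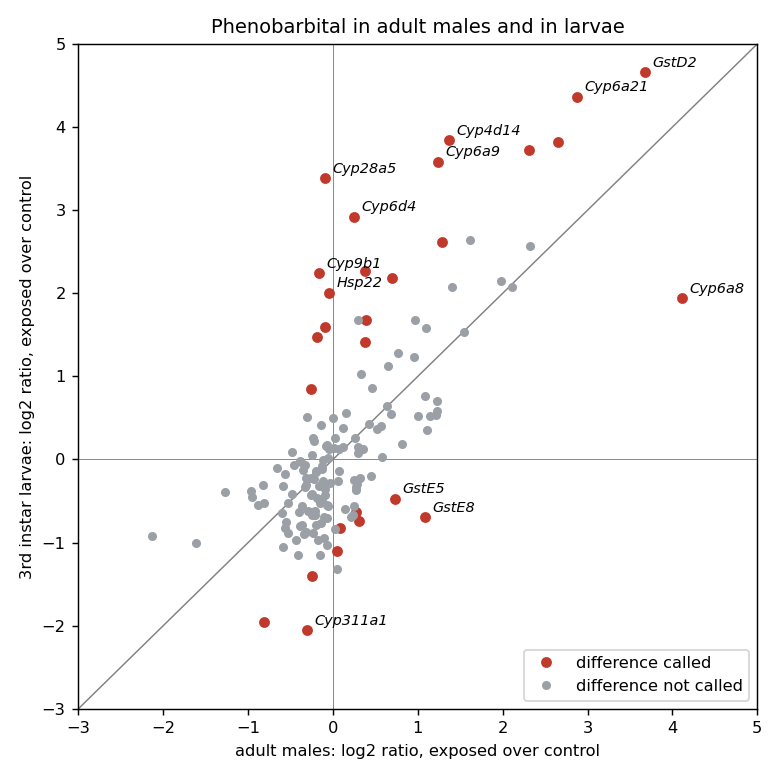
Fitted log2 ratio of phenobarbital-exposed over control in adult males (x axis) and in 3rd instar larvae (y axis) for the 159 named genes, with the 28 genes whose difference was called in red and the line of equal values in grey. Cyp28a5, Cyp6d4, Cyp9b1 and Hsp22 are near 0 in adults and near or above 2 in larvae, and Cyp6a8 lies far below the line.

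DDT was given to adult males at 10 µg per vial in the same vehicle and for the same 4 h, with its own controls and 3 arrays used. Array 4, with the same values in both groups, correlated after turning by dye at -0.61, 0.83 and -0.69 with DDT arrays 1, 2 and 3. It thus followed the DDT array of its own dye orientation and opposed those of the other. Whether the 3 DDT arrays repeat each other was not tested, and each DDT ratio below combines both orientations. The doses of the 2 compounds are not matched. Of 159 genes 13 differed between the 2 exposures by limma (8.18%), 12 higher (7.55%) and 1 lower (0.629%) with phenobarbital. The count was 8 with no dye term and between 26 and 45 with arrays centred on all spots or control genes, scaled arrays or a dye term per exposure. Cyp6a8 stood at 4.12 ± 0.33 with phenobarbital and -1.23 ± 0.33 with DDT, a difference of 5.35 ± 0.46 (limma adjusted p = 5.24e-10), and it was called in opposite directions in the 2 exposures. Cyp6a21 fitted 2.88 ± 0.21 with phenobarbital and -0.05 ± 0.21 with DDT. GstD2 was called higher with both, at 3.68 ± 0.23 with phenobarbital and 1.19 ± 0.23 with DDT, a difference of 2.49 ± 0.32. Cyp6w1 and Cyp4ae1 exceeded their DDT ratios by 2.14 ± 0.27 and 1.99 ± 0.34.

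With DDT 10 genes were called in either direction (6.29%). Of the 7 higher ones (4.4%), 4 were among the 27 higher with phenobarbital, and all 4 were GSTs, GstD1, GstD2, GstD5 and GstE1. GstD1 stood at 1.22 ± 0.24 with phenobarbital and 0.77 ± 0.24 with DDT, and GstE1 at 1.11 ± 0.21 with phenobarbital and 0.77 ± 0.21 with DDT, differences that were not called. The other 3 were Ace, GstD8 and GstT4. Ace, the gene of acetylcholinesterase, was the 1 gene lower with phenobarbital than with DDT, at -0.37 ± 0.24 and 0.83 ± 0.24, a difference of -1.20 ± 0.33. None of the 17 P450s higher with phenobarbital was called higher with DDT, and for 10 of them the difference itself was called. With 4.4% of all genes called higher with DDT, 0 of 17 lies near the share over all genes. Cyp12c1, at 0.55 ± 0.15 with DDT, passed the p threshold (limma adjusted p = 0.0274) but not the size threshold.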

How the data were processed

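RNA pools of exposed and control insects had been hybridised on 2-colour arrays by the authors, and the deposited values are log2 ratios of the 2 dyes per spot. limma is named in the submitters' processing notes with no version. The background handling, normalization and array images were not given in the sources used here, so signal over background is unknown, and precision is limited by the number of arrays. Empty values and the ceiling value 16.61 were treated as missing. Of 1936 spots, 656 had 1 gene symbol (159 genes, 158 of them matched to the reference by gene identifier), 8 had several and 1272 had none. Ratios were turned to exposed over control, spots of a gene averaged, and each array set to a median of 0 over named genes. With limma 3.58.1 in R 4.3.3, 1 coefficient per exposure and a common dye term were fitted to 34 arrays, leaving out array 4 of both adult groups, which were identical. Differences between exposures were contrasts of the same fit. The script was tested on simulated data: it called 28.6% of genes changed 1.5-fold, 71.2% at 2-fold, 98.1% at 4-fold and 0.714% of unchanged genes. Whether these shares hold for the measured arrays, where the spot copies of some genes disagree, was not tested. Figures were drawn with matplotlib 3.10.9 and tables made with pandas 2.3.3 and numpy 2.4.6 in Python 3.11.15. The genes, lists and comparisons were chosen with earlier results of these data known. The rule named the 25 called genes with the largest ratios, all lower ones, known inducible genes, delta GSTs, the 5 widest ranges, the extreme uncalled genes of each family, the control genes and the 5 largest differences from larvae and DDT. Other genes were named after their values were seen. The alternatives were other centrings, dye terms, spot rules, array sets and single spot copies.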

Additional observations from a re-analysis of the deposited data

Results flagged for a closer look

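Of 159 genes 28 differed between phenobarbital-exposed adult males and larvae by limma, beyond array error in 1 pool pair per stage. The 5 largest differences on the log2 scale, adults minus larvae, were -3.47 in Cyp28a5, -2.67 in Cyp6d4, -2.48 in Cyp4d14, -2.40 in Cyp9b1 and -2.35 in Cyp6a9. Groups of 3 arrays were too small for a search for single outlying arrays.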

How the results depend on the processing

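All 27 higher calls were kept as deposited, with arrays centred on all spots or on the control genes, and after each array was scaled to a common spread. The deposited values and both of those centrings raise the median gene, so a higher call could hardly be lost there. Of the 27, 22 were kept with no dye term, 20 with array 4 included, 19 without array 2 and 17 with the higher-numbered spot copy. The counts of higher genes ran from 19 to 33 over all alternatives, and 13 genes were higher in each of them apart from the minimum of 3 spots per array, which left 132 genes. The 13 were Cyp4d14, Cyp4e2, Cyp6a21, Cyp6a8, Cyp6a9, Cyp6d5, Cyp6w1, GstD1, GstD2, GstD5, GstE1, GstE3 and GstE8. Cyp6a8 and Cyp6a2 fell out under that minimum. Leaving out 1 array at a time gave 19 to 26 higher genes (19 without array 2), of which 17 were kept each time, 2 to 8 lower genes (8 without array 1, 5 without array 3), 26 to 28 differing from larvae and 11 to 14 from DDT. Of the 130 uncalled genes 95 were called under none of the 17 alternatives, 17 under 1 and 4 under at least 5, namely spo, CG10175 and Cyp28d2 as lower and GstO3 as higher.

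The 2 lower calls, phtm and Cyp310a1, depended on the setting: phtm was lower in 9 and Cyp310a1 in 8 of the 17 alternatives. Both were lower after scaling to a common spread, with a dye term per exposure and with the 3 arrays alone, and neither was with array 4 included. Lower genes of any name numbered 0 as deposited, with arrays centred on all spots, with arrays centred on the control genes or with at least 3 spots, 1 with no dye term or with array 4 included, 4 with the lower-numbered spot copy, 5 with the higher-numbered copy, 7 after scaling to a common spread, 14 with a dye term per exposure and 16 with the 3 arrays fitted alone. Scaling thus turned the split to 29 higher and 7 lower, a dye term per exposure to 30 and 14, and the 3 arrays alone to 30 and 16. The cause was not tested. Including array 4 left 20 higher genes.

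Genes differing from larvae numbered 10 as deposited and 52 with a dye term per exposure. Genes differing from DDT numbered 37 with arrays centred on all spots, 31 on the control genes, 26 with arrays scaled, 8 with no dye term, 45 with a dye term per exposure and 5 with array 4 of the phenobarbital males included. Of the 27 higher genes 3 changed sign, all under the single spot copies, an alternative chosen after seeing the data: Cyp4ae1 to -0.025 with the lower-numbered copy, and Cyp6a2 to -2.58 and GstD7 to -0.52 with the higher-numbered copy. Arrays of the same number in other exposures deviated together no more than arrays of another number and the same dye (median r 0.42 in both). Arrays of the same number also share a dye, and the dye effect was left in. This comparison therefore cannot exclude a weaker pairing by number. With the array number as a replicate block 26 genes were higher, 2 lower, 29 differed from larvae and 13 from DDT.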

Other observations

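The probe table gave no gene symbol for 1272 spots, and 908 of them had a ratio on all 3 arrays of phenobarbital-exposed males. Of these, 75 were at least 1.5-fold higher and 150 at least 1.5-fold lower than the median named gene on every array, among them 39 at least 4-fold higher and 69 at least 4-fold lower. They were not tested and are unnamed here. Another 8 spots, in sets of 4, carry 2 symbols each. The set for CG30095 and Jhe stood at -0.65, 0.91 and -1.40 on arrays 1, 2 and 3, and the set for CG17672 and RpS12 at -0.30, -1.90 and -0.34.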
